A study of Cairina moschata with 9 samples.

Results

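The genes described here are the 54 of 14814 in the table whose mean level in the abdominal fat of Muscovy ducks, Cairina moschata, was stepwise lower with age, from 12 to 35 to 66 weeks. The members were chosen by their measured values: a mean over the 9 libraries that reached 1 FPKM, a value above 0 in every library, a 12-week mean at least 25% above the 35-week mean, a 35-week mean at least 25% above the 66-week mean, and a highest 66-week value below the lowest 12-week value. FPKM is a level in fragments scaled by gene length and by mapped fragments. The groups were 3 ducks of 12 weeks, 3 of 35 weeks and 3 of 66 weeks, all of normal body weight per the design text, with 1 library of total RNA from the abdominal fat of each bird. The sources used here do not state sex, strain or feeding. The labels give lane code 3 to the 12-week libraries, 4 to the 35-week libraries and 5 to the 66-week libraries, so age and lane cannot be told apart in any value below.

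Abdominal fat is the main visceral lipid store of poultry. It grows in young birds through the formation of new adipocytes and later mostly through their enlargement. Besides adipocytes it holds progenitor cells, vessels and immune cells, and the RNA of a piece of the depot is the sum over all of them. In such bulk samples, fewer cells of a type and less RNA per cell cannot be told apart. The table gives Ensembl-type identifiers, which begin with ENSAPLG, without gene names. Whether these gene models are those of Cairina moschata was not checked. None of the gene lists or cell type markers fixed for the work could be matched, so neither the function of the members nor the tissue label was checked. Only the identifiers of the 2 members with the largest ratio of the 12-week to the 66-week mean are given. The other members are called by their position, from 1 to 54, in that order.

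Of the 11491 genes whose mean reached 1 FPKM, 10825 were above 0 in every library. All 54 members pass this filter, since the rule contains it. The 3 means were in descending order in 1401 of the 10825 genes and met both steps of 25% in 134. In 54 of these 134 the 66-week and 12-week birds did not overlap, and in the other 80 they did. The mirror rule, with means ascending in the same steps and with the same separation, held 196 genes. Relative depth was estimated from genes of low level that were above 0 in few libraries. For each pair of libraries, the most frequent ratio of their values was assumed to be that of a single fragment in each. Some pairs had as few as 37 such genes. The estimates ran from 0.888 to 1.29 of the mean library. They were 0.938 to 1.05 at 12 weeks, 0.888 to 0.998 at 35 weeks and 0.891 to 1.29 at 66 weeks. If the libraries were scaled against each other in another way, these values are not ratios of depth, and the depth in fragments is unknown. Bird 3 of 12 weeks was less like its own age than the 35-week libraries. Its mean Pearson correlation of log2(FPKM + 1) was 0.844 with the other 12-week libraries and 0.886 with the 35-week libraries. Birds 1 and 2 of 12 weeks were at 0.881 and 0.872 with their own age, which includes bird 3. Bird 1 was at 0.879 with the 35-week libraries, and bird 2 at 0.873 with the 66-week libraries. These correlations are across the 11491 genes, which are not independent replicates.

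The members were genes of low level. Their mean over the 9 libraries had a median of 5.28 FPKM and ran from 1.02 to 1174 FPKM, against a median of 18.02 FPKM over the 10825 genes. A mean under 5 FPKM was found in 24 of the 54 members, or 44.4%, and in 16.9% of the 10825 genes. A mean of 100 FPKM or more was found in 2 members, or 3.7%, and in 10.4% of the 10825 genes. At 66 weeks the mean was under 1 FPKM in 13 members, or 24.1%, and in 2.24% of the 10825 genes. The rule makes the 66-week mean the lowest of each member, so this share only describes the members.

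The size of the decline differed widely within the set. The ratio of the 12-week to the 66-week mean ran from 1.61 to 47.4 with a median of 2.65. It was at least 2 in 44 members, at least 5 in 15 and at least 10 in 8. Of the 10825 genes, 5.86%, 1.1% and 0.416% reached these ratios. On the log2 scale, the 66-week mean over the 12-week mean had a median of -1.41 in the members and of 0.02 in the 10825 genes. The rule fixes the sign and the smallest size of these values, so they only describe the members. The ratio of the 12-week to the 35-week mean had a median of 1.51, and that of the 35-week to the 66-week mean one of 1.68. The ratio of the second step was the larger in 35 of the 54 members, or 64.8%. It was the larger in 49.7% of the 10825 genes, whatever the direction of their steps. The rule used both steps of the members, and most of the 10825 genes did not have descending means, so nothing is read from these shares. The first step made up 44.5% of the log2 decline at the median, with quartiles of 32.9% and 52.6% and extremes of 11.7% and 88.6%.

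**Figure D1:**
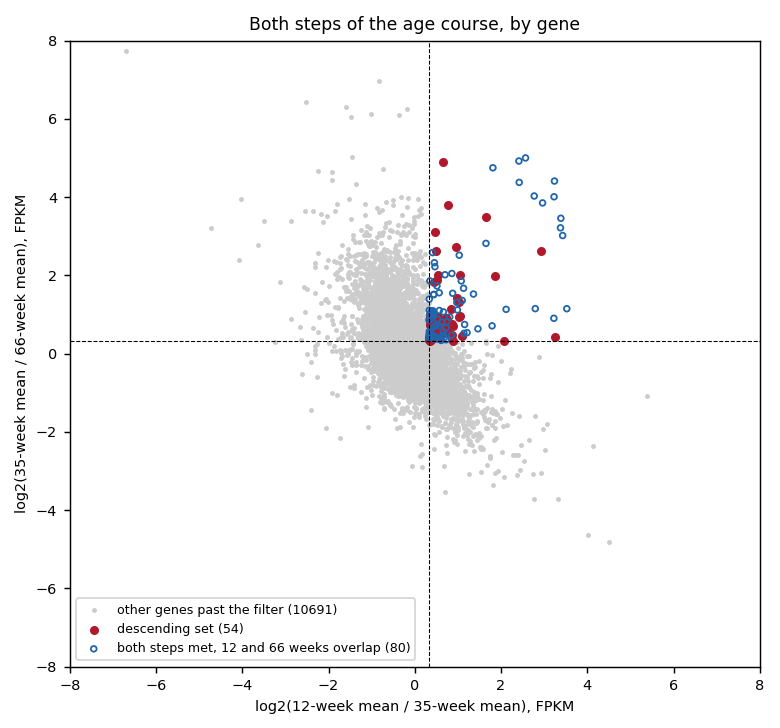
Each point is 1 gene past the filter, with the log2 ratio of the 12-week to the 35-week mean on the x axis and that of the 35-week to the 66-week mean on the y axis. Dashed lines mark a step of 25%, red points the 54 members and open blue circles the 80 genes that met both steps but whose 66-week and 12-week birds overlapped and whose ratio of the 12-week to the 66-week mean reached 201, against 47.4 in the members.

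The descending course held for means more than for single birds. All 9 libraries were ordered by age, with every 12-week bird above every 35-week bird and every 35-week bird above every 66-week bird, in 4 of the 54 members, and in 0.0739% of the 10825 genes. All 35-week birds were below all 12-week birds in 9 members, against 6.9% of the 10825 genes. All 66-week birds were below all 35-week birds in 26 members, against 19.2% of the 10825 genes. The separation of 66-week from 12-week birds, which the rule requires of all members, was met by 10% of the 10825 genes. Nothing is read from these shares, since the rule used the same values. In 12 members all 3 of the 35-week birds were above the lowest 12-week bird. The 3 medians were in descending order in 42 members, against 11.7% of the 10825 genes. In 26 members they met both steps of 25%, against 0.998% of the 10825 genes. In 8 members the 12-week median was not above the 35-week median, against 52.2% of the 10825 genes. In every member whose medians were not in descending order, the name of the set does not describe the middle bird of each age. Position 8 is one of them, as its 35-week median was below its 66-week median.

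The 2 identifiers given are those of the steepest members, and neither had a course shared by the birds of 12 weeks. ENSAPLG00000010694, at position 1, was at 84.5, 241 and 3.36 FPKM in 12-week birds 1, 2 and 3. It was at 23.2, 6.93 and 12.8 FPKM in the 35-week birds and at 2.83, 2.05 and 2.07 FPKM in the 66-week birds. Bird 3 of 12 weeks was thus below all 35-week birds and just above the 66-week birds. Over the 3 birds of each age the mean was 110 ± 121 FPKM for 12 weeks, 14.3 ± 8.26 FPKM for 35 weeks and 2.32 ± 0.445 FPKM for 66 weeks (SD, n = 3 each), so the SD at 12 weeks was larger than the mean.

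ENSAPLG00000007075, at position 2, had its high value in another bird. It was at 0.912, 1.04 and 39.8 FPKM in 12-week birds 1, 2 and 3, at 5.93, 17.7 and 2.91 FPKM in the 35-week birds, and at 0.190, 0.527 and 0.171 FPKM in the 66-week birds. Birds 1 and 2 of 12 weeks were below all 35-week birds, and bird 3 was above them. The first step, a ratio of 1.57, rested on that single bird, and the second step had the largest ratio of any member, 29.9. The means were 13.9 ± 22.4 FPKM, 8.86 ± 7.84 FPKM and 0.296 ± 0.200 FPKM at 12, 35 and 66 weeks (SD, n = 3 each).

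The member at position 3 repeated the library order of position 1. Its values were 138, 340 and 8.99 FPKM at 12 weeks, 127, 11.7 and 15.7 FPKM at 35 weeks, and 5.62, 4.54 and 3.60 FPKM at 66 weeks. In both members the 3 highest libraries were 12-week bird 2, 12-week bird 1 and 35-week bird 1, in that order. These libraries were the 3 highest in this order in 2 of the 54 members and in 0.397% of the 10825 genes. Of the 80 genes that met both steps but overlapped between 66 and 12 weeks, 16 had a ratio of the 12-week to the 66-week mean of at least 10, and all 16 had this order. The order was looked for after the values of position 1 were seen.

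Position 7 had the lowest coefficient of variation between 12-week birds of any member, 8.004%. It was at 11.7, 13.6 and 13.3 FPKM at 12 weeks, at 0.815, 1.77 and 1.49 FPKM at 35 weeks and at 2.31, 0.257 and 0.483 FPKM at 66 weeks. Every 12-week bird was above every older bird, while 1 of the 66-week birds was above all 35-week birds. Its first step had the largest ratio of any member, 9.50, and its second a ratio of 1.34.

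The opposite balance was seen at position 4. It was at 6.82, 11.9 and 4.51 FPKM at 12 weeks, at 3.31, 2.86 and 7.44 FPKM at 35 weeks and at 0.599, 0.205 and 0.180 FPKM at 66 weeks. The 66-week birds were below all others, and 12-week and 35-week birds overlapped. The ratios of its steps were 1.71 and 13.8.

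The member with the highest level, at position 8, switched between 2 levels from bird to bird. It was at 192, 2559 and 3093 FPKM at 12 weeks, at 93.8, 98.8 and 4044 FPKM at 35 weeks and at 191, 114 and 184 FPKM at 66 weeks. The highest 66-week bird was just below the lowest 12-week bird, and 2 of the 35-week birds were below all 66-week birds. The next by level, at position 18, was at 62.4, 59.9 and 401 FPKM at 12 weeks, at 37.8, 101 and 153 FPKM at 35 weeks and at 51.6, 54.2 and 25.9 FPKM at 66 weeks. Its 12-week mean rested on bird 3, and birds 1 and 2 of 12 weeks were within the range of the 35-week birds.

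**Figure D2:**
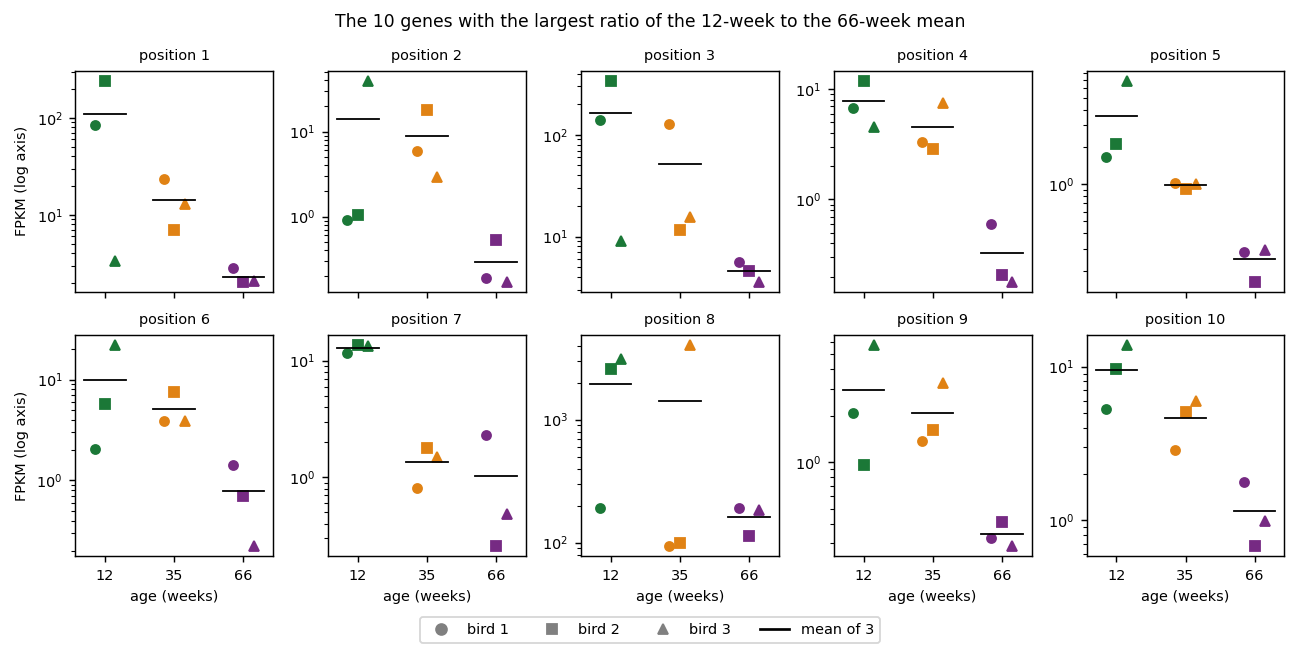
FPKM on a log axis against age in weeks for the members at positions 1 to 10, with a marker for each bird and a line for the mean of 3. The 12-week birds lay far apart in position 1 (84.5, 241 and 3.36 FPKM) and lay close together in position 7 (11.7, 13.6 and 13.3 FPKM).

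Members differed by which 12-week bird carried the mean. In 14 members, 12-week bird 3 was at least 2 times as high as both other 12-week birds, in 5 members bird 2 was, and in 1 member bird 1 was. In a further 2 members both other birds were at least 2 times bird 1, and in the other 32 no 12-week bird stood apart by a ratio of 2. These limits were set after the values were seen. Among the 32, the highest 12-week bird could still be over 2 times the lowest, with a ratio of 2.65 at position 4. A lead of bird 3 by 2 times or more was found in 25.9% of the members and in 7.6% of the 10825 genes. One of bird 2 was found in 9.26% of the members and in 1.43% of the 10825 genes. The rule used the same values, and 1 high bird can raise a 12-week mean, so nothing is read from these shares.

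In the 14 members led by 12-week bird 3, that bird was 2.51 to 38.4 times the higher of the other 12-week birds, with a median of 3.75. The mean of 12-week birds 1 and 2 was below the 35-week mean in 12 of the 14, with a median ratio to it of 0.766. The same mean was above the 66-week mean in all 14, with ratios of 1.21 to 7.61 and a median of 1.74. In these 12 the first step rested on 1 library. At 35 weeks bird 3 was the highest in 8 of the 14, bird 2 in 5 and bird 1 in 1.

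Position 5 is 1 of the other 2, in which the mean of 12-week birds 1 and 2 was above the 35-week mean. It was at 1.65, 2.103 and 6.89 FPKM at 12 weeks, at 1.03, 0.907 and 1.01 FPKM at 35 weeks and at 0.282, 0.163 and 0.295 FPKM at 66 weeks. All 9 libraries were ordered by age, and the 35-week birds were close together at 0.981 ± 0.0643 FPKM (SD, n = 3). Without 12-week bird 3 the gene no longer met the rule, since its mean over the libraries was then under 1 FPKM.

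**Figure D3:**
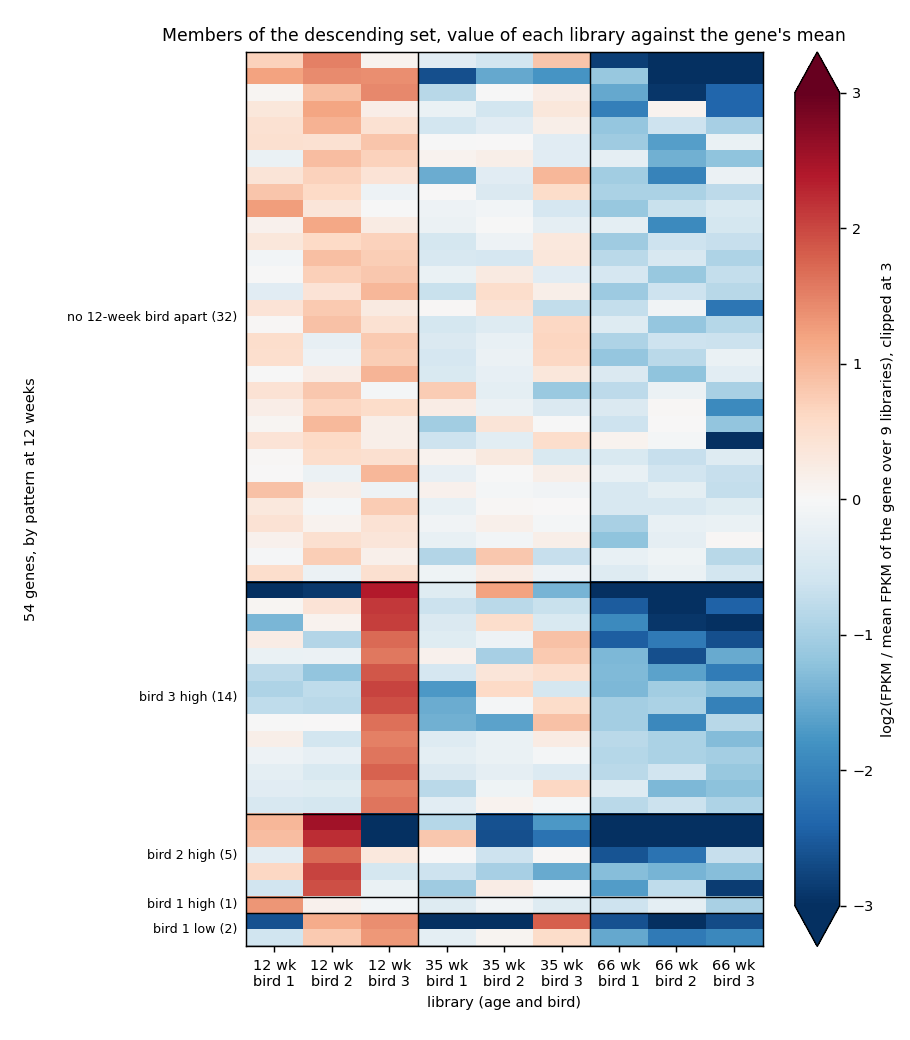
Rows are the 54 members, grouped by their pattern at 12 weeks with the number of genes in parentheses, and columns are the 9 libraries. Colour gives log2 of the FPKM over the gene's mean, clipped at 3. It shows the 14 genes led by 12-week bird 3 and the 5 led by bird 2. Beside them are 32 genes in which no 12-week bird stood apart from both others by a ratio of 2.

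Within an age the members had a higher median spread between birds than the 10825 genes. The SD of log2 FPKM between the 3 birds had a median over the members of 0.61 at 12 weeks, 0.49 at 35 weeks and 0.40 at 66 weeks, against 0.30, 0.23 and 0.23 over the 10825 genes. The 3 birds lay within a factor of 2 at 12 weeks in 22 members, at 35 weeks in 29 and at 66 weeks in 34. Of the 10825 genes, 72.6%, 83.2% and 83.9% did so at these ages. At all 3 ages they did so in 9 of the 54, or 16.7%, against 63% of the 10825 genes. The rule used the same values and admits genes whose mean is carried by 1 bird, so the spread only describes the members. The members were also of lower level than most genes, and the part of level in this spread was not tested.

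**Figure D4:**
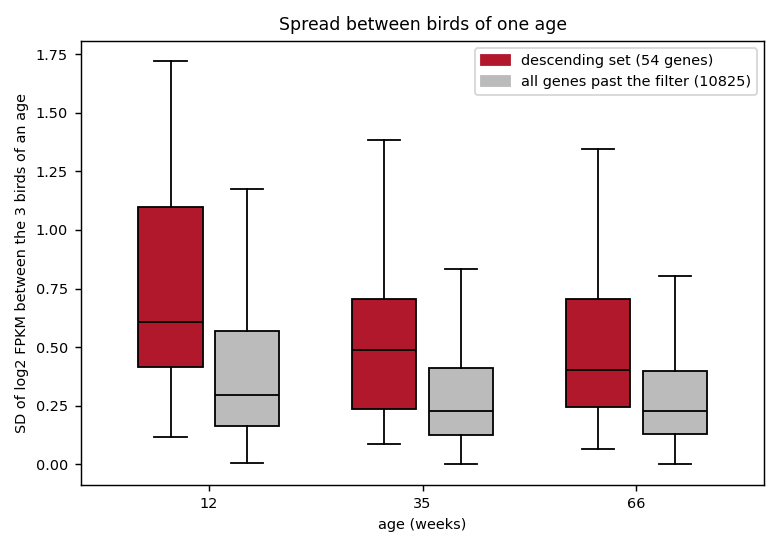
SD of log2 FPKM between the 3 birds of each age for the 54 members (red) and all 10825 genes past the filter (grey). Lines in the boxes are medians (0.61, 0.49 and 0.40 for the members at 12, 35 and 66 weeks), boxes are quartiles, whiskers reach to 1.5 box lengths, and genes beyond them are not drawn.

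The level of the whole set by library was unequal between birds of one age. The rule used these values and sets their order by age, so they only describe the members. The median over members of log2 of the value over the gene's mean was 0.09, 0.51 and 0.72 in 12-week birds 1, 2 and 3, and -0.38, -0.13 and 0.00 in the 35-week birds. In the 66-week birds it was -1.02, -0.95 and -1.004, closer together than at the other ages. Bird 1 of 35 weeks was the lowest of its age in 30 of the 54 members, or 55.6%, against 36.3% of the 10825 genes. Bird 1 of 12 weeks was the lowest of its age in 27 members, or 50%, against 32.7% of the 10825 genes. No sample label links birds of different ages by their replicate number.

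Few members met the rule whichever library was left out. Without any 1 library at a time, 8 of the 54 members still met the rule in all 9 cases, those at positions 1, 3, 10, 21, 23, 26, 33 and 35. Besides the steep members at positions 1 and 3, these had ratios of the 12-week to the 66-week mean from 2.48 to 8.35. The member at position 23 was at 14.8, 22.2 and 14.9 FPKM at 12 weeks, at 7.42, 8.48 and 12.3 FPKM at 35 weeks and at 4.81, 6.998 and 5.41 FPKM at 66 weeks, with no overlap between any 2 ages. Its means were 17.3 ± 4.24, 9.39 ± 2.56 and 5.74 ± 1.13 FPKM (SD, n = 3 each).

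At a lower level, position 33 also had all libraries ordered by age. It was at 2.30, 2.73 and 2.92 FPKM at 12 weeks, at 1.251, 1.61 and 2.26 FPKM at 35 weeks and at 0.866, 1.17 and 1.12 FPKM at 66 weeks. The gap between the lowest 12-week and the highest 35-week bird was within 0.1 FPKM.

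Position 10 had the steepest course of the 8 after positions 1 and 3. It was at 5.29, 9.57 and 13.8 FPKM at 12 weeks, at 2.86, 5.04 and 5.93 FPKM at 35 weeks and at 1.77, 0.678 and 0.988 FPKM at 66 weeks. A single 35-week bird was above the lowest 12-week bird. The 66-week birds were below all others.

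The member at position 31 was the last of the 4 with all libraries ordered by age. It was at 2.52, 5.22 and 2.77 FPKM at 12 weeks, at 2.05, 2.29 and 1.92 FPKM at 35 weeks and at 1.89, 0.622 and 1.61 FPKM at 66 weeks. The gap between its 66-week and 35-week birds was within 0.1 FPKM.

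The member with the smallest spread within an age was at position 50. It was at 73.5, 56.8 and 99.7 FPKM at 12 weeks, at 50.6, 60.0 and 59.3 FPKM at 35 weeks and at 42.0, 42.3 and 45.6 FPKM at 66 weeks. The 66-week birds were below all others, and 1 of the 12-week birds was within the range of the 35-week birds. The ratios of its steps were 1.35 and 1.31.

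Many members were close to the limits of the rule. The smaller of the ratios of the 2 steps was under 1.3 in 11 members and at least 1.5 in 21, and 23 genes that met all other conditions had a smaller step from 1.2 to just under the limit. The nearest member inside, with a smaller step of 1.253, was at 3.35, 1.46 and 1.26 FPKM at 12 weeks, at 1.02, 1.24 and 1.03 FPKM at 35 weeks and at 0.869, 1.08 and 0.680 FPKM at 66 weeks. The nearest gene outside, with a smaller step of 1.247, was at 2.85, 2.48 and 2.58 FPKM at 12 weeks, at 1.61, 2.06 and 2.65 FPKM at 35 weeks and at 1.70, 1.79 and 1.58 FPKM at 66 weeks. The gene outside had 12-week birds closer together than the member inside.

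The next pair on either side of the limit was likewise apart by little. The member, with a smaller step of 1.253, was at 8.05, 21.5 and 3.64 FPKM at 12 weeks, at 3.42, 2.66 and 1.85 FPKM at 35 weeks and at 2.17, 1.99 and 2.16 FPKM at 66 weeks. The gene outside, with a smaller step of 1.246, was at 4.28, 4.07 and 4.86 FPKM at 12 weeks, at 5.25, 2.19 and 3.08 FPKM at 35 weeks and at 2.501, 2.84 and 3.09 FPKM at 66 weeks.

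A limma fit over the 11491 genes gave few calls among the members, at an adjusted p below 0.05. Lower at 66 than at 12 weeks were 2 of the 54 members, those at positions 4 and 7, against 0.087% of the genes tested. Lower at 66 than at 35 weeks was 1 member, that at position 4, against 2.38% of the genes tested. Lower at 35 than at 12 weeks were 0 members, against 0% of the genes tested. At an unadjusted p under 0.05 limma gave 38 members and 767 of all genes tested as lower at 66 than at 12 weeks. It gave 12 members and 1497 genes as lower at 66 than at 35 weeks, and 6 members and 470 genes at 35 than at 12 weeks. The rule used these contrasts, each pair of comparisons shares the birds of 1 age, and nothing about the members is read from the counts. With the replicate number as a block, limma called 0 members lower in each of the 3 comparisons, where 0 of the 11491 genes were called lower at 66 than at 12 weeks, 135 at 66 than at 35 weeks and 0 at 35 than at 12 weeks. At an unadjusted p under 0.05 that fit gave 41, 9 and 4 members and 829, 1513 and 436 of all genes tested as lower at the later age, in the same order of comparisons. No sample label links birds that share a replicate number, and the block leaves fewer residual degrees of freedom. No pairing of birds is therefore read from this fit.

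Of the scalings between libraries, the one to equal sums of FPKM changed the number of genes that met the rule the most. As deposited, the median FPKM over the 10825 genes was alike in all libraries, from 16.98 in 12-week bird 1 to 18.02 in 12-week bird 3. The sums were not alike. Summed over all genes, the FPKM values came to 1214260 to 1467610 at 12 weeks, 1503060 to 1716760 at 35 weeks and 1884660 to 2145330 at 66 weeks, with no overlap between ages. With every library scaled to the same sum, 991 genes met the rule and 24 its mirror image, against 54 and 196 in the values as deposited. All 54 members were among the 991. That scaling moved the median log2 ratio of the 66-week to the 12-week mean over the 10825 genes to -0.57, against 0.02 as deposited. Median-ratio scaling gave 67 genes with all 54 members among them, and quantile normalization gave 65 with 40 of the 54.

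Leaving out single libraries changed which genes met the rule. Without 12-week bird 3, 84 genes met the rule, of which 29 were among the 54, and none of the 14 members led by that bird. For 12 of the 14 this was fixed beforehand, since the mean of 12-week birds 1 and 2 was below the 35-week mean. There were 124 genes without 12-week bird 1 and 130 without bird 2, with 47 and 42 of the members. Without 35-week bird 3 there were 99, with 38 of the members. Without 66-week bird 1 there were 85, with 50 of the members. Leaving out a 12-week or 66-week bird also loosens the rule, since fewer birds then have to be apart. In these cases the mirror rule held 200 to 285 genes, against 196 with all libraries. How much of the change in the counts came from this was not tested. With medians in place of means, 49 genes met the rule, of which 26 were members.

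**Figure D5:**
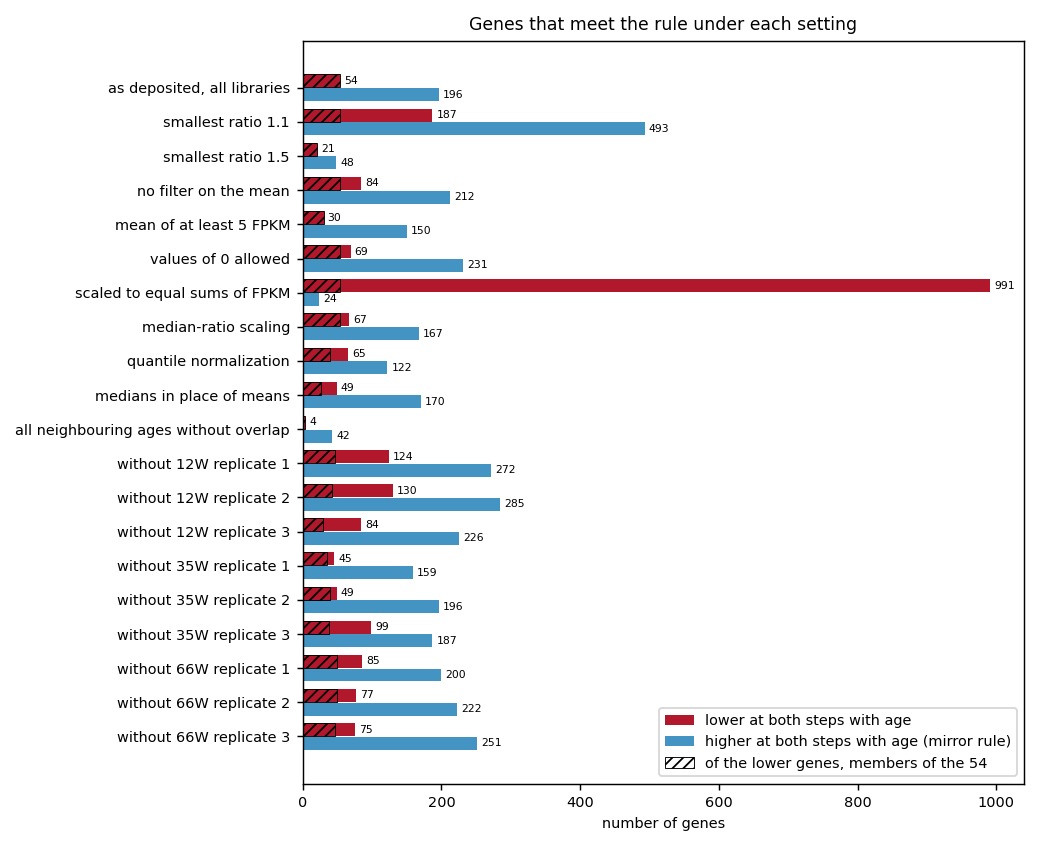
Number of genes that met the rule (red), of these the members of the 54 (hatched), and number that met its mirror image (blue) under each setting named on the y axis. Equal sums of FPKM gave 991 against 24 genes, where the values as deposited gave 54 against 196, and the replicate is the bird left out.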

How the data were processed

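The deposited table holds 1 FPKM value per gene and library, per the file headers. TopHat2 2.0.9, Cufflinks 2.1.1 and Cuffdiff are named in the submitters' processing notes. The sources used here do not state their roles, the genome build or whether libraries were scaled against each other. No library was pooled, and no pair of libraries had more than 1 gene with an equal value above 0 in both.

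The members and lists were chosen with earlier results of these data known. The 25 gene lists fixed for the work matched 0 genes, as the table has no names, so the naming rule for that case was used: at most 2 identifiers, by the ratio of the 12-week to the 66-week mean. The rule was applied to the deposited FPKM (Python 3.11.15, numpy 2.4.6, pandas 2.3.3, and plots with matplotlib 3.10.9) and checked on simulated tables. The simulated noise was smaller than the spread between birds in most members. The check therefore shows only that the code applies the rule. The comparison of ages used limma 3.58.1 under R 4.3.3 (linear model, contrasts, and eBayes with trend) on log2(FPKM + 1), all 9 libraries in 1 fit with 6 residual degrees of freedom, two-sided, for 11491 genes whose mean reached 1 FPKM, with Benjamini-Hochberg adjustment. No count test was run, as FPKM are not counts. Each library is read as 1 bird, as the design text states.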

Additional observations from a re-analysis of the deposited data

How the results depend on the processing

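Unless it follows from the setting itself, the cause of a change was not tested. The 54 members became 187 with a smallest ratio of 1.1, 21 with 1.5, 84 with no filter on the mean, 30 where the mean had to reach 5 FPKM, 991 with equal sums of FPKM and 4 with no overlap between neighbouring ages, and without 1 library between 45 and 130. Their median ratio of the 12-week to the 66-week mean, 2.65, became 1.63, 3.97, 3.12 and 1.95 with ratios of 1.1 and 1.5, values of 0 allowed and equal sums, and 2.56 to 4.39 without 1 library.

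Genes lower at 66 than at 12 weeks (limma, adjusted p below 0.05) numbered 10, and 4 with quantile normalization, 3459 with equal sums, 0 with the replicate block and 0 to 3 without 1 library. The 2 members among them became 1 with a pseudocount of 0.1 or 0.01, no filter, median-ratio scaling or quantile normalization, 40 with equal sums, 0 with the block and 0 to 1 without 1 library. Genes lower at 66 than at 35 weeks numbered 274, and 156 with no filter, 439 with equal sums, 135 with the block and 1 to 924 without 1 library. The 1 member among them became 0 with no filter, quantile normalization or the block, 2 with equal sums and 0 to 9 without 1 library. Lower at 35 than at 12 weeks were 0 genes, but 3 for the pseudocount of 0.01, 1 without the filter or for equal sums and 0 to 143 without 1 library. The 0 members among them became 0 to 3 without 1 library. The highest counts, 924 and 143 genes and 9 and 3 members, came without 12-week bird 3. No sample label links libraries of different ages that share a replicate number. Deviations of same-numbered libraries correlated at -0.0939 to 0.215. The 2 of 9 pairs above 0.1 were both between 12 and 35 weeks. Whether such libraries are linked was not tested.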

Other observations

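Among the 80 genes that met both steps but whose 66-week and 12-week birds overlapped, the ratio of the 12-week to the 66-week mean ran from 1.67 to 201, with a median of 3.32. In 39 of them 12-week bird 3 was at least 2 times both other 12-week birds, in 20 bird 2 was, in 4 bird 1 was, and in the other 17 none was. All 16 with a ratio of at least 10 had 12-week bird 2, 12-week bird 1 and 35-week bird 1 as their 3 highest libraries in that order, as the members at positions 1 and 3 did. Their level had a median over the 16 genes of 12.3, 41.3 and 0.112 FPKM in 12-week birds 1, 2 and 3, of 7.54, 0.496 and 0.682 FPKM in the 35-week birds, and of 0.453, 0.178 and 0.188 FPKM in the 66-week birds. In these genes 12-week bird 3 was not above the highest 66-week bird, which their overlap and this order of libraries fix. The order also puts 35-week bird 1 above the other 35-week birds, so nothing is read from either. Of the 10825 genes past the filter, 45 had a ratio of at least 10, and 18 of the 45, the 16 and 2 members, had this order. The order was seen in the data before it was counted, and what the birds share was not tested.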
